A study of Mus musculus with 6 samples.

Results

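Interferon-stimulated genes are the antiviral and immune genes that a cell switches on after it senses an interferon. Here 44 of them were chosen by gene name and followed by RNA sequencing in 4T-1 cells, an epithelial line from a mouse mammary carcinoma, out of 40205 genes in the count table. Y641-F cells carried EZH2 with the Y641-F change, which makes this H3K27 methyltransferase hyperactive, and Control cells carried the empty MSCV retroviral vector. Both groups came from the same 4T-1 line, which the labels call wild type in the Control samples, and each had 3 libraries that stand for separate batches of stable cells. EZH2 is the enzyme of the Polycomb complex PRC2, whose mark H3K27me3 is commonly found on repressed genes. The methods name hygromycin for Y641-F cells and puromycin for vector cells in one place and puromycin for all cells in another, so that the drug and the protein cannot be told apart if the drugs differed. The comparison asked how the transcriptome differs in cells with hyperactive EZH2.

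Type I interferons bind the receptor formed by *Ifnar1* and *Ifnar2*, whose kinases *Tyk2* and *Jak1* phosphorylate STAT proteins. These, *Stat2* among them, join *Irf9* in a complex, ISGF3, that binds the interferon-stimulated response element (ISRE) in promoters, while interferon gamma acts at the GAS element. The induced genes include sensors of viral RNA, proteins that block viral entry, translation or RNA stability, and inhibitors that end the response. Many cells keep a low tonic level of these genes without infection.

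Of the 44 genes, 42 had a line in the count table, and *Mx1* and *Mx2* were not analysed here. *Ifitm1* stayed below the filter of 0.1 CPM (CPM is the count relative to the TMM-scaled library total) in at least 3 libraries, with 2, 2 and 3 counts in Y641-F libraries, against 0, 1 and 4 counts in Control libraries. The other 41 were tested. Total counts per library ran from 32509268 to 36429035 in Y641-F cells and from 32955434 to 34881914 in Control cells. The epithelial markers were abundant in every library, with a summed level of 3923 to 4442 CPM in Y641-F cells and 3878 to 3997 CPM in Control cells over 10 genes. *Ezh2* itself had 3686, 3354 and 4196 counts in Y641-F libraries, against 3574, 4350 and 3644 counts in Control libraries. These ranges overlapped and the gene did not pass the test. Whether reads of the vector's transcript are among these counts cannot be told from them.

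Interferon-stimulated genes were more often lower than higher in Y641-F cells. Of the 41 tested, 17 (41.5%) were lower at an adjusted p under 0.05 by edgeR's quasi-likelihood test, beside 16.0% of all 21043 genes tested. In the other direction 4 (9.76%) were higher, beside 15.6% of all genes, and 20 did not pass the test. In both directions together 21 genes (51.2%) were called, beside 31.6% of all genes. The median log2 fold change of the 41 genes was -0.55, beside -0.01 over all genes. By the study's thresholds, a log2 change of 1 or more in size and an unadjusted p no higher than 0.05, 7 were lower (5.76% of all genes were). None of the 4 higher genes passed both of these thresholds, while 3.40% of all genes did so in that direction. The groups did not overlap in 21 genes that were lower in Y641-F cells (23.3% of all genes did so) and in 5 that were higher (21.2%). In sum the members took 687 to 711 CPM in Y641-F cells and 758 to 795 CPM in Control cells. Some other measures also leaned by group. Mitochondrial genes took 2.07, 3.52 and 2.92% of counts in Y641-F libraries, against 1.64, 1.42 and 2.23% in Control libraries, which overlap. Endothelial and fibroblast markers summed to 28.0 to 42.5 CPM over 11 genes in Y641-F libraries and to 41.0 to 53.8 CPM in Control libraries, and 1 of the 8 tested passed the test. This was the collagen gene *Col1a1*, with 10, 22 and 12 counts in Y641-F libraries, against 64, 87 and 50 counts in Control libraries (-2.08, edgeR adjusted p = 0.00116), while *Lum* had 0 counts in every library. Of the 8 tested, 4 had a log2 fold change below 0 and 4 above, with a median of -0.04. *Pdgfra* made up most of the sums and did not pass the test (-0.43, edgeR adjusted p = 0.0792). The part of these measures in the interferon genes was not tested.

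**Figure D1:**
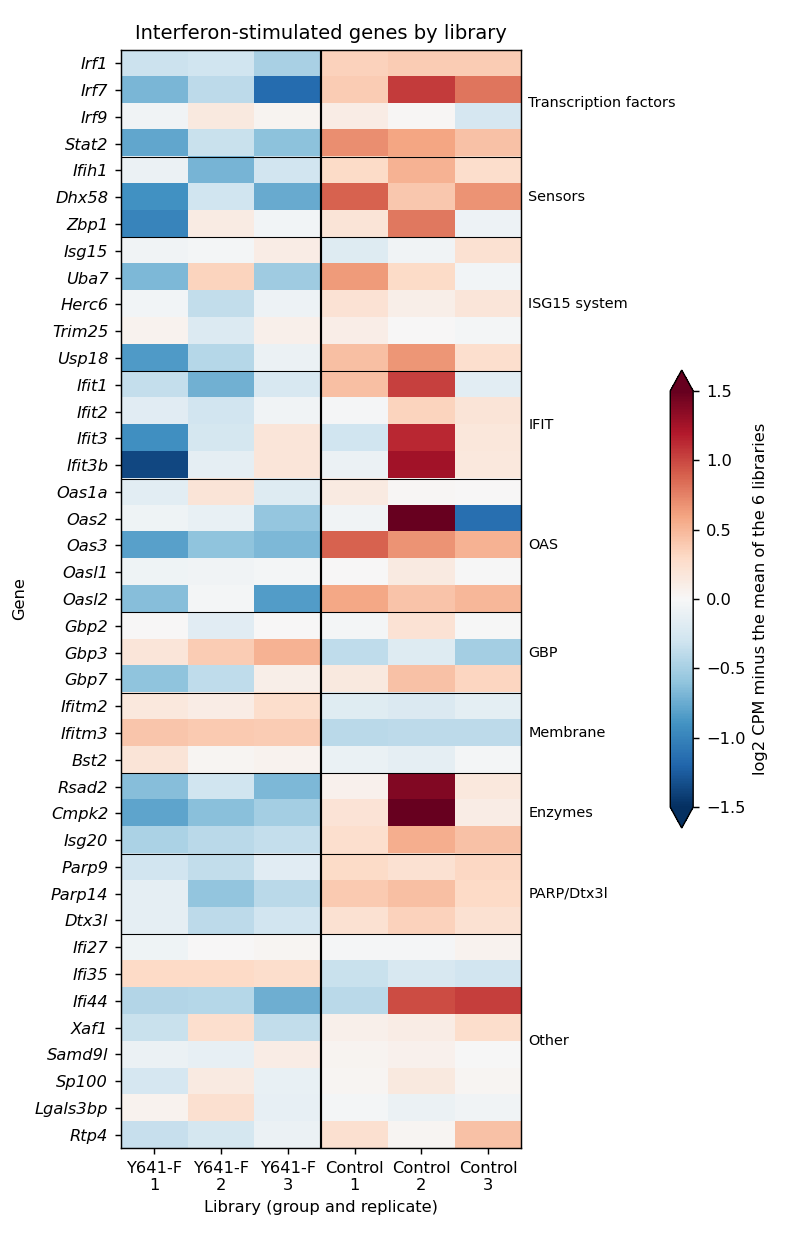
Level of the 41 tested interferon-stimulated genes (down the page, grouped by role) in each library (across, Y641-F left and Control right), as log2 CPM minus the mean of the 6 libraries. Blue is below and red above that mean, and the darkest red cells of the IFIT and enzyme groups sit in Control replicate 2.

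The Control libraries differed among themselves in these genes. Control replicate 2 was the highest Control library for 21 of the 41 genes (51.2%), beside 30.5% of all genes tested. It stood at least 1 log2 unit above the mean of Control replicates 1 and 3 for 5 genes (12.2%), beside 4.31% of all genes. These were *Oas2*, *Cmpk2*, *Rsad2*, *Ifit3b* and *Ifit3*, with deviations of 2.52, 1.44, 1.29, 1.23 and 1.19 on the log2 scale. All 4 IFIT genes, all 3 GBP genes and all 3 enzymes of the list (*Rsad2*, *Cmpk2* and *Isg20*) had their highest Control value in that library.

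Several markers of haematopoietic cells also had their highest counts in that library. *Ptprc*, the leukocyte antigen CD45, had 13, 13 and 18 counts in Y641-F libraries, against 24, 85 and 22 counts in Control replicates 1, 2 and 3. *Lyz2*, a lysozyme of macrophages and neutrophils, had 33, 81 and 46 counts in Y641-F libraries, against 62, 325 and 36 counts in Control libraries. *Adgre1*, the macrophage antigen F4/80, had 18, 9 and 8 counts in Y641-F libraries, against 10, 75 and 22 counts in Control libraries. Each was highest in Control replicate 2, and none passed the test between the groups. The called markers went opposite ways without standing out in that library. *Cd68*, a lysosomal protein of macrophages, was lower in Y641-F cells (-0.95, edgeR adjusted p = 2.43e-04), and *Cd14*, a coreceptor for lipopolysaccharide, was higher (0.61, edgeR adjusted p = 0.00233). *Cd14*, *Cd3e* and *Tyrobp* had their highest Control value in Control replicate 3, and *Cd68* had its highest in Control replicate 1. The 13 markers summed to 33.1 to 36.4 CPM in Y641-F libraries and to 29.9, 46.7 and 32.0 CPM in Control replicates 1, 2 and 3, and 5 of the 10 tested stood at least 1 log2 unit higher in Control replicate 2. *Cd79a*, *Ncr1* and *Siglech*, which define B cells, natural killer cells and plasmacytoid dendritic cells, had at most 5, 2 and 2 counts in any library. The part of such cells in the interferon genes was not tested, and in bulk RNA fewer cells of a type cannot be told apart from less RNA per cell.

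**Figure D2:**
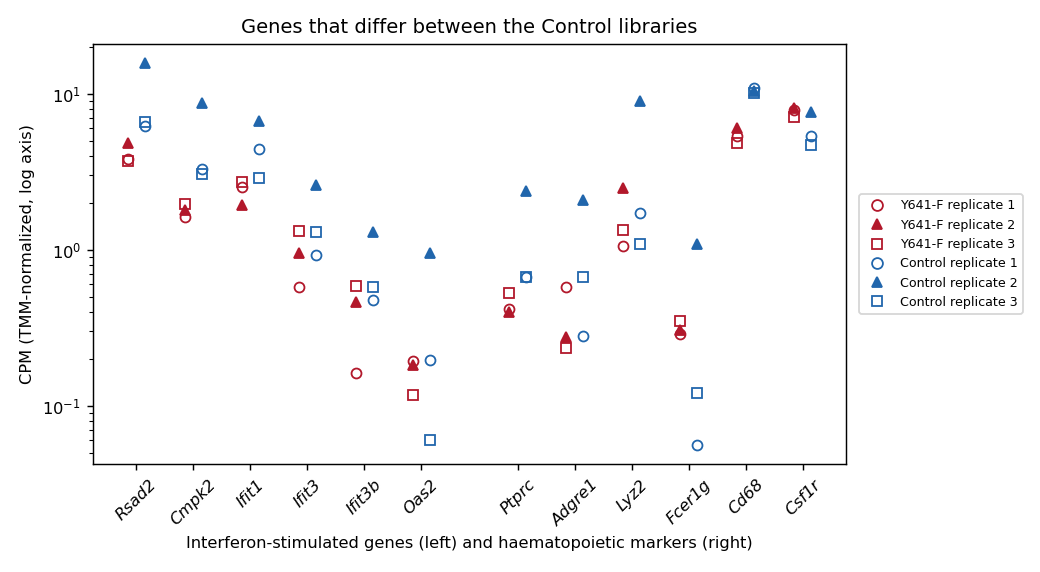
CPM (log axis) of 6 interferon-stimulated genes and 6 haematopoietic markers in each library, with Y641-F in red left of Control in blue. The interferon genes shown were picked as those with the largest deviation in Control replicate 2, and the markers are a part of the 13 listed. The filled blue triangle, Control replicate 2, lies above both other Control libraries for all 6 interferon genes shown. It also does so for *Ptprc*, *Adgre1*, *Lyz2*, *Fcer1g* and *Csf1r*, but not for *Cd68*.

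Without Control replicate 2, 13 of the 41 genes were lower, beside 12.1% of all genes tested, and 4 were higher, beside 11.2%. The median log2 fold change of the members was -0.36. The calls of *Usp18*, *Ifit1*, *Ifit2* and *Ifi44* were lost, and the 13 remaining lower genes and 4 higher genes were all among those called with 6 libraries. The log2 fold change of *Oas2* was -1.28 with all libraries and 0.33 without Control replicate 2, and neither value passed the test.

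**Figure D3:**
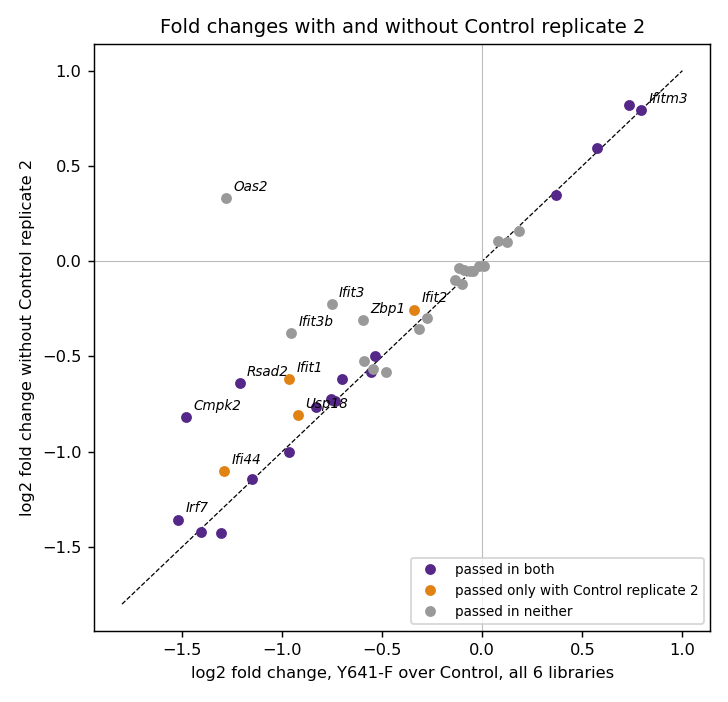
Log2 fold change (Y641-F over Control) of each of the 41 genes with all 6 libraries (x axis) and without Control replicate 2 (y axis), where the dashed line marks equal values. *Rsad2*, *Cmpk2*, *Ifit3*, *Ifit3b* and *Oas2* lie farthest above the line, and the 4 genes higher in Y641-F cells lie close to it.

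Many of the genes share a promoter element, the ISRE. RefSeq promoter windows, from 250 bases before to 50 bases after a transcript start, were given for 34 members, and the motif GAAANNGAAA on either strand was in 15 of them (44.1%), beside 3.99% of 27025 genes with a window of the same length. The GAS motif TTCNNNGAA, which reads alike on both strands and can overlap an ISRE, was in 8 members (23.5%), beside 9.55% of those genes. A match to the ISRE motif was in 5 of 13 lower genes, 3 of 4 higher genes and 7 of 16 genes that did not pass the test. In *Ifih1* and *Ifitm3* the matches begin past the start, at base 33 and at bases 3 and 20. Of the 15 tested genes with a match 5 were lower and 3 higher, with a median log2 fold change of -0.59. Of the 18 with no match in their windows, 8 were lower and 1 higher, with a median of -0.33. Variants of the motif and sites outside the windows were not searched, so these 18 genes may still hold an ISRE. Over all genes tested 16.0% were lower and 15.6% higher. The first stretches shown are from genes that were lower in Y641-F cells (*Ifit1*, *Rsad2*, *Oas3* and *Stat2*) and from *Ifit3* and *Isg15*, which did not pass the test. They lie before the annotated genes and read 5′ to 3′ on the gene's own strand, with the ISRE matches in capitals.
Ifit1: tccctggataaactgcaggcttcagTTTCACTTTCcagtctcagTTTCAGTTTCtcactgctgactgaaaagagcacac
Rsad2: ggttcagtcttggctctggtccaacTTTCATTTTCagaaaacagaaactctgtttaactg
Oas3: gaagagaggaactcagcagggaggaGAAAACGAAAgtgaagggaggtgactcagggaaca
Stat2: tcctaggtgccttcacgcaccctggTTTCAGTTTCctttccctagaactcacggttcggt
Ifit3: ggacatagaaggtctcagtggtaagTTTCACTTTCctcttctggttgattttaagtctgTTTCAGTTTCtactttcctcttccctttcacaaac
Isg15: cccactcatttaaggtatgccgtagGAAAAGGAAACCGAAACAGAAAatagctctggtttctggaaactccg

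On GRCm39 these lie at chr19:34618160-34618238 on the plus strand (*Ifit1*), chr12:26506537-26506596 on the minus strand (*Rsad2*), chr5:120915765-120915824 on the minus strand (*Oas3*), chr10:128106120-128106179 on the plus strand (*Stat2*), chr19:34560748-34560841 on the plus strand (*Ifit3*) and chr4:156285307-156285378 on the minus strand (*Isg15*). The same 94 bases of the *Ifit3* stretch stand before its neighbour *Ifit3b* at chr19:34585144-34585237. In *Isg15* the run of capitals holds 3 overlapping matches. Of the 4 genes that were higher in Y641-F cells, *Gbp3*, *Ifitm2* and *Ifitm3* hold matches and *Ifi35* has none in its window. Those matches lie near the RefSeq start in stretches that overlap annotated exons, and are shown as 30-base sites. Such a position is not particular to them, since the matches of *Ifih1*, which was lower, and of *Oas1a*, *Gbp2* and *Gbp7*, which did not pass the test, also lie in stretches that overlap exons.
Gbp3: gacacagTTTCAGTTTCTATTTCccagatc
Ifitm2: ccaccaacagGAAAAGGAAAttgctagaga
Ifitm3: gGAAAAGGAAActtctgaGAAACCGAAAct

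These sites lie at chr3:142265753-142265782 on the plus strand (*Gbp3*), chr7:140535901-140535930 on the minus strand (*Ifitm2*) and chr7:140590627-140590656 on the minus strand (*Ifitm3*). The first match of *Ifitm3* begins at base 3 after the start and that of *Ifitm2* at base -46. The sequences were taken from RefSeq windows of GRCm38.p6 and each of the 41 member windows matched GRCm39 at 1 place. A match describes the letters of the window and does not show that a factor was bound. Lack of a match does not show that a gene has no ISRE.

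Among the transcription factors of the response, 3 of 4 were lower in Y641-F cells. *Irf7*, the factor that amplifies interferon production, had 46, 60 and 36 counts in Y641-F libraries, against 114, 182 and 141 counts in Control libraries. The groups did not overlap, and the mean level was 1.45 ± 0.391 CPM in Y641-F cells and 4.17 ± 0.941 CPM in Control cells (SD, n = 3 each). The log2 fold change of *Irf7* was -1.52 (SE 0.261, edgeR adjusted p = 8.80e-04). Without Control replicate 2 it was -1.36 (edgeR adjusted p = 0.00665). *Stat2*, a subunit of ISGF3, had 325, 466 and 401 counts in Y641-F libraries, against 1044, 981 and 805 counts in Control libraries. Every Y641-F library lay below every Control library, and the log2 fold change was -1.15 (SE 0.127, edgeR adjusted p = 3.97e-05). *Irf1*, a factor induced by interferon gamma, had 1311, 1409 and 1296 counts in Y641-F libraries, against 2410, 2484 and 2278 counts in Control libraries. Its libraries lay close together within each group, and its log2 fold change was -0.74 (SE 0.0845, edgeR adjusted p = 5.22e-05). *Irf9*, the DNA-binding subunit of ISGF3, had 241, 291 and 283 counts in Y641-F libraries, against 311, 294 and 223 counts in Control libraries. Its groups overlapped, with a log2 fold change of 0.08 (95% interval -0.23 to 0.38, edgeR adjusted p = 0.723).

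The cytosolic sensors of viral nucleic acid were lower for both RNA helicases of the list. *Dhx58*, which encodes LGP2, a regulator of RIG-I and MDA5, had 75, 121 and 92 counts in Y641-F libraries, against 303, 218 and 241 counts in Control libraries. No library crossed between the groups, and the log2 fold change was -1.31 (SE 0.201, edgeR adjusted p = 4.15e-04). *Ifih1*, which encodes the long double-stranded RNA sensor MDA5, had 484, 334 and 465 counts in Y641-F libraries, against 729, 860 and 655 counts in Control libraries. Its log2 fold change was -0.70 (SE 0.147, edgeR adjusted p = 0.00325), again without overlap. *Zbp1*, a sensor of Z-form nucleic acid that triggers necroptosis, had 24, 57 and 53 counts in Y641-F libraries, against 66, 101 and 50 counts in Control libraries. Here Control replicate 3 fell within the Y641-F range, and the log2 fold change was -0.60 (95% interval -1.34 to 0.15, edgeR adjusted p = 0.218).

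In the ISG15 system, a ubiquitin-like conjugation pathway, the modifier itself did not pass the test. *Isg15* had 306, 328 and 377 counts in Y641-F libraries, against 321, 354 and 395 counts in Control libraries. The ranges overlapped almost fully, with a log2 fold change of 0.01 (95% interval -0.29 to 0.31, edgeR adjusted p = 0.975), and its sign changed under several alternatives. Exons of *Isg15* share 243 bases (31.1% of its exon length) with the lncRNA *Gm46878* on the other strand. *Gm46878* had 653, 586 and 619 counts in Y641-F libraries, against 1127, 934 and 860 counts in Control libraries. The part of *Gm46878* in the counts of *Isg15* was not tested. *Usp18*, the protease that removes ISG15 and also dampens the receptor, had 18, 26 and 35 counts in Y641-F libraries, against 54, 63 and 43 counts in Control libraries. The groups were apart, and its log2 fold change was -0.92 (SE 0.322, edgeR adjusted p = 0.0464). That call did not hold without Y641-F replicate 1, Y641-F replicate 2, Control replicate 1, Control replicate 2 or Control replicate 3 (edgeR adjusted p = 0.134, 0.0622, 0.103, 0.16 and 0.0678).

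The enzymes that attach ISG15 did not pass the test. *Uba7*, the activating enzyme, had 54, 117 and 66 counts in Y641-F libraries, against 158, 124 and 90 counts in Control libraries. Y641-F replicate 2 lay inside the Control range, and the log2 fold change of -0.55 (edgeR adjusted p = 0.18) became -0.94 without that library (edgeR adjusted p = 0.01005). *Herc6*, the ligase of mouse cells, had 442, 370 and 477 counts in Y641-F libraries, against 613, 559 and 547 counts in Control libraries. Its groups were apart but its log2 fold change of -0.32 missed the threshold (edgeR adjusted p = 0.0605), which it passed under 3 alternatives. *Trim25*, a ubiquitin ligase that activates RIG-I, was among the most abundant members at 80.8 ± 8.36 CPM in Y641-F cells and 83.3 ± 3.79 CPM in Control cells (SD, n = 3 each), with a log2 fold change of -0.04 (95% interval -0.25 to 0.16, edgeR adjusted p = 0.773).

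The IFIT genes, a cluster on chromosome 19 whose proteins bind foreign RNA and block its translation, had their highest values in Control replicate 2. *Ifit1*, whose promoter stretch holds 2 ISRE matches, had 78, 63 and 93 counts in Y641-F libraries, against 159, 239 and 95 counts in Control libraries. Control replicate 3 lay only just above the Y641-F libraries, and the log2 fold change was -0.96 (SE 0.281, edgeR adjusted p = 0.0207). It was -0.62 without Control replicate 2 (edgeR adjusted p = 0.13) and its call was also lost without Y641-F replicate 1 (edgeR adjusted p = 0.0579). *Ifit2* had 701, 680 and 838 counts in Y641-F libraries, against 895, 1151 and 955 counts in Control libraries. The groups did not overlap, with a log2 fold change of -0.34 (SE 0.112, edgeR adjusted p = 0.0366). The call of *Ifit2* was lost without Y641-F replicate 1, Y641-F replicate 2, Control replicate 2 or Control replicate 3 (edgeR adjusted p = 0.0928, 0.066, 0.181 and 0.0773).

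*Ifit3* and its near copy *Ifit3b* did not pass the test. *Ifit3* had 18, 31 and 45 counts in Y641-F libraries, against 33, 93 and 43 counts in Control libraries. *Ifit3b* had 5, 15 and 20 counts in Y641-F libraries, against 17, 47 and 19 counts in Control libraries. The promoter stretch they share was identical but lies outside annotated exons, and whether their reads were split was not tested. Both genes had overlapping groups, with Control replicate 2 alone above the rest. Their log2 fold changes of -0.75 and -0.96 (edgeR adjusted p = 0.208 and 0.218) were -0.22 and -0.38 without that library (edgeR adjusted p = 0.761 and 0.708).

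The OAS genes on chromosome 5 encode sensors of double-stranded RNA that make 2-5A, the activator of RNase L, and enzymatically inactive relatives. *Oas3* had the clearest change of the family, with 132, 161 and 160 counts in Y641-F libraries, against 499, 430 and 356 counts in Control libraries. No library came near the other group, and the mean was 4.61 ± 0.339 CPM in Y641-F cells and 12.2 ± 1.58 CPM in Control cells (SD, n = 3 each). The log2 fold change of *Oas3* was -1.40 (SE 0.144, edgeR adjusted p = 2.32e-05), and -1.42 without Control replicate 2. *Oasl2*, a catalytically active OAS-like protein in the mouse, had 204, 330 and 196 counts in Y641-F libraries, against 551, 500 and 478 counts in Control libraries. Y641-F replicate 2 was the highest of its group and still below every Control library, with a log2 fold change of -0.97 (SE 0.182, edgeR adjusted p = 0.00161).

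The other 3 OAS genes did not pass the test. *Oasl1*, an inhibitor of *Irf7* translation in the mouse, had 596, 632 and 671 counts in Y641-F libraries, against 719, 792 and 658 counts in Control libraries. Its log2 fold change was -0.09 (95% interval -0.30 to 0.11, edgeR adjusted p = 0.507). *Oas1a* had 187, 253 and 201 counts in Y641-F libraries, against 266, 247 and 224 counts in Control libraries, with overlapping groups and a log2 fold change of -0.10 (95% interval -0.43 to 0.23, edgeR adjusted p = 0.66). Reads of *Oas1a* may be shared with its near copies, of which *Oas1g* had 113 to 210 counts in Y641-F libraries and 140 to 191 counts in Control libraries. *Oas2* was almost silent outside 1 library, with 6, 6 and 4 counts in Y641-F libraries, against 7, 34 and 2 counts in Control libraries. Its log2 fold change of -1.28 (edgeR adjusted p = 0.288) was 0.33 without Control replicate 2.

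The guanylate-binding proteins, GTPases that attack the vacuoles of intracellular pathogens, lie side by side on chromosome 3, and 1 of the 3 passed the test. *Gbp3* was higher in Y641-F cells, with 148, 178 and 206 counts, against 115, 131 and 96 counts in Control libraries. The groups did not overlap, and the log2 fold change was 0.73 (SE 0.175, edgeR adjusted p = 0.00711). *Gbp7* had 46, 57 and 83 counts in Y641-F libraries, against 91, 112 and 95 counts in Control libraries. It was lower in every Y641-F library, with a log2 fold change of -0.59 (edgeR adjusted p = 0.0852) that passed the test only when Y641-F replicate 3 was left out (-0.82, edgeR adjusted p = 0.03995) or library sizes alone were used (-0.69, edgeR adjusted p = 0.048). *Gbp2* had 314, 293 and 346 counts in Y641-F libraries, against 355, 422 and 331 counts in Control libraries, with a log2 fold change of -0.12 (95% interval -0.39 to 0.16, edgeR adjusted p = 0.531).

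Of the membrane proteins that restrict viral entry and release, 2 of the 3 tested were higher. *Ifitm3*, which traps viruses at endosomal fusion, had 3391, 3517 and 3629 counts in Y641-F libraries, against 2213, 2235 and 2056 counts in Control libraries. Its libraries lay close together within each group, at 107 ± 1.53 CPM in Y641-F cells and 62.0 ± 0.298 CPM in Control cells (SD, n = 3 each). The log2 fold change of *Ifitm3* was 0.79 (SE 0.0777, edgeR adjusted p = 1.67e-05). Without Control replicate 2 it was 0.79, and that of *Gbp3* was 0.82. *Ifitm2*, its neighbour on chromosome 7, had 3095, 3155 and 3663 counts in Y641-F libraries, against 2818, 2745 and 2648 counts in Control libraries. The groups did not overlap, and its log2 fold change was 0.37 (SE 0.0824, edgeR adjusted p = 0.00494). The 2 genes are similar in sequence, and exons of *Ifitm3* share 780 bases (60.9% of its exon length) with the lncRNA *Gm57251* on the other strand. *Bst2*, or tetherin, which holds budding virions to the cell, had 1410, 1322 and 1407 counts in Y641-F libraries, against 1324, 1299 and 1284 counts in Control libraries. After scaling its groups were apart, with a log2 fold change of 0.18 (95% interval -0.01 to 0.37, edgeR adjusted p = 0.141).

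Per kilobase of exon *Ifitm2*, *Ifitm3* and *Bst2* had the highest levels of the list in both groups. *Ifitm2* averaged 101 CPM per kb in Y641-F cells and 78.4 CPM per kb in Control cells, *Ifitm3* averaged 83.9 CPM per kb in Y641-F cells and 48.4 CPM per kb in Control cells, and *Bst2* averaged 34.8 CPM per kb in Y641-F cells and 30.7 CPM per kb in Control cells. Next came *Trim25* and *Isg15* in Y641-F cells, at 14.0 and 13.2 CPM per kb, and *Isg20* and *Irf1* in Control cells, at 19.4 and 14.6 CPM per kb. The ranges of *Trim25* and *Isg15* over the Y641-F libraries overlapped, at 12.4 to 14.98 and 12.6 to 14.1 CPM per kb. At the low end *Ifi44* averaged 0.0781 CPM per kb in Y641-F cells and 0.192 CPM per kb in Control cells, and *Oas2* was lower still.

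The nucleotide and RNA enzymes were all lower. *Rsad2*, or viperin, which makes a chain-terminating nucleotide, and *Cmpk2*, a mitochondrial nucleotide kinase, are neighbours on chromosome 12 and moved alike over the libraries. *Rsad2* had 118, 158 and 126 counts in Y641-F libraries, against 222, 565 and 218 counts in Control libraries. *Cmpk2* had 50, 59 and 67 counts in Y641-F libraries, against 117, 312 and 101 counts in Control libraries. For both, every Control library was above every Y641-F library, and Control replicate 2 was far above the other 2 Control libraries. The log2 fold change of *Rsad2* was -1.21 (SE 0.311, edgeR adjusted p = 0.0107), and -0.64 without Control replicate 2 (edgeR adjusted p = 0.0379). The log2 fold change of *Cmpk2* was -1.48 (SE 0.362, edgeR adjusted p = 0.00814), and -0.82 without Control replicate 2 (edgeR adjusted p = 0.0371). The call of *Rsad2* was lost without Y641-F replicate 1 or Y641-F replicate 3 (edgeR adjusted p = 0.053 and 0.0502). *Isg20*, an exonuclease that degrades viral RNA, had 825, 916 and 986 counts in Y641-F libraries, against 1586, 1953 and 1653 counts in Control libraries. Its groups were well apart, with a log2 fold change of -0.83 (SE 0.0970, edgeR adjusted p = 5.76e-05).

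The ADP-ribosyltransferase genes *Parp9* and *Parp14* and the ubiquitin ligase *Dtx3l*, the partner of *Parp9*, form a block on chromosome 16 between positions 35653231 and 35792980 of GRCm39, and all 3 were lower. *Parp14* had 459, 352 and 420 counts in Y641-F libraries, against 768, 801 and 662 counts in Control libraries, and a log2 fold change of -0.75 (SE 0.125, edgeR adjusted p = 6.93e-04). *Parp9* had 632, 628 and 756 counts in Y641-F libraries, against 1090, 1054 and 1021 counts in Control libraries, and a log2 fold change of -0.56 (SE 0.0935, edgeR adjusted p = 7.75e-04). *Dtx3l* had 672, 592 and 664 counts in Y641-F libraries, against 995, 1089 and 916 counts in Control libraries, and a log2 fold change of -0.54 (SE 0.1002, edgeR adjusted p = 0.00152). None of the 3 overlapped between the groups, and none stood out in Control replicate 2, where the deviations were 0.10, -0.07 and 0.12 log2 units. *Parp9* and *Dtx3l* start close together on opposite strands and share 458 exon bases, so without a known strand setting some of their reads cannot be told apart.

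Of the remaining 8 members 1 was higher, 1 was lower and 6 did not pass the test. *Ifi35*, a partner of *Nmi* in cytokine signalling, had 777, 819 and 833 counts in Y641-F libraries, against 579, 620 and 551 counts in Control libraries. The groups were apart, and its log2 fold change was 0.57 (SE 0.0919, edgeR adjusted p = 5.74e-04). Exons of *Ifi35* share 620 bases with the abundant gene *Vat1* on the other strand. *Vat1* had 8111, 6951 and 7817 counts in Y641-F libraries, against 10001, 10651 and 9251 counts in Control libraries. Its part in the counts of *Ifi35* was not tested. *Ifi44*, a marker of type I interferon signatures, had 16, 17 and 14 counts in Y641-F libraries, against 19, 53 and 51 counts in Control libraries. Control replicate 1 lay next to the Y641-F libraries, and the log2 fold change was -1.29 (SE 0.445, edgeR adjusted p = 0.0441). It ran from -1.65 to -1.06 with 1 library left out, and its call held without Control replicate 1 (edgeR adjusted p = 0.00952). The call was lost without Y641-F replicate 1, Y641-F replicate 2, Y641-F replicate 3, Control replicate 2 or Control replicate 3 (edgeR adjusted p = 0.0935, 0.0537, 0.127, 0.152 and 0.162). *Rtp4*, a chaperone of G protein-coupled receptors, had 106, 118 and 140 counts in Y641-F libraries, against 185, 160 and 195 counts in Control libraries. It was lower in every Y641-F library, yet its log2 fold change of -0.48 missed the threshold (edgeR adjusted p = 0.0559), which it passed under 3 alternatives.

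The other 5 genes were *Ifi27*, a small hydrophobic protein, *Xaf1*, an antagonist of the apoptosis inhibitor XIAP, *Samd9l*, a translation restriction factor, *Sp100*, a nuclear body protein, and *Lgals3bp*, a secreted glycoprotein. Their groups overlapped and their log2 fold changes ran from -0.27 (*Xaf1*) to 0.12 (*Lgals3bp*), with edgeR adjusted p from 0.401 to 0.925. The counts of *Ifi27* differed by 10 or less in every library from those of *Ifi27l2a*, with which it shares 163 exon bases on the other strand, so the table may hold the same reads under both names. Of the 41 tested genes 23 had an exon that overlaps another gene on either strand. Among the 18 with no such overlap 8 were lower and 1 was higher, with a median log2 fold change of -0.65. Among the 23 with an overlap 9 were lower and 3 higher, with a median of -0.54. Of the 8 with an overlap on the same strand 1 was lower and 1 higher. Over all genes tested 16.0% were lower and 15.6% higher.

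**Figure D4:**
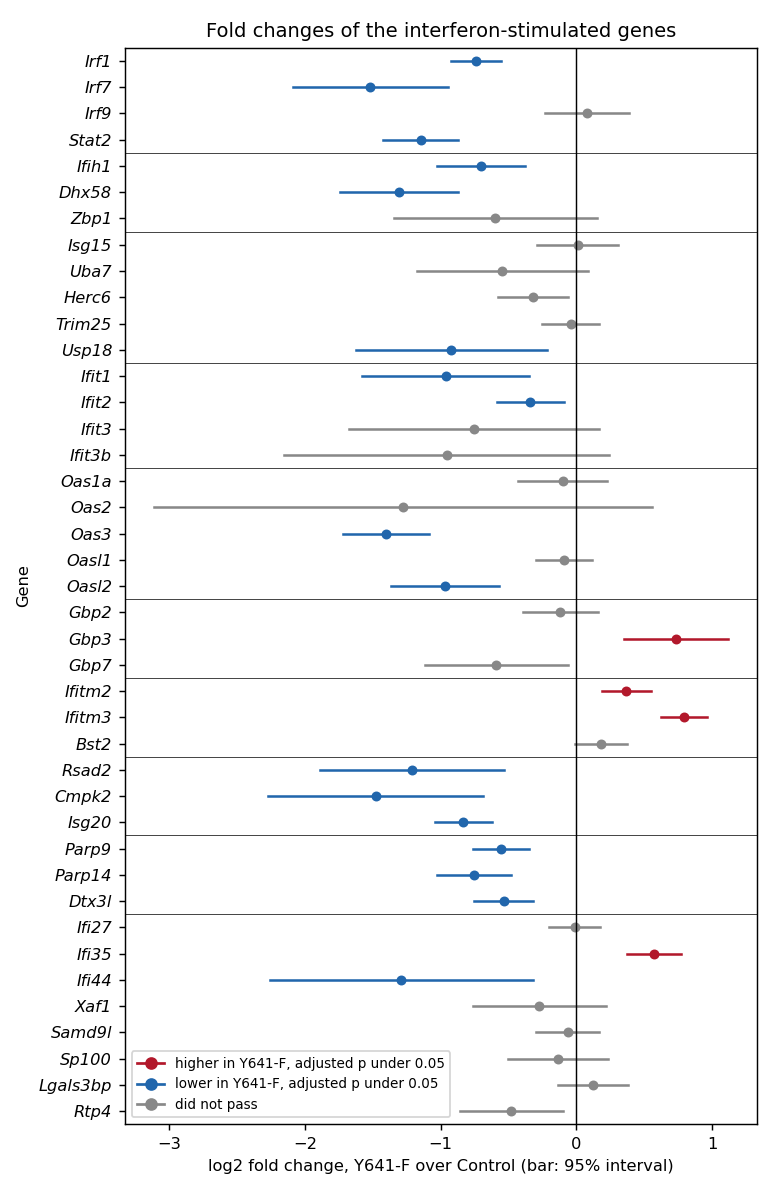
Log2 fold change (Y641-F over Control, edgeR) of each tested gene, with its 95% interval as a bar and lines between roles. The 17 lower genes in blue include all of the enzyme and PARP/Dtx3l groups, and the 4 higher genes in red are *Gbp3*, *Ifitm2*, *Ifitm3* and *Ifi35*.

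The interferons themselves had few or no counts. None of 21 ligand genes passed the filter, and none had more than 4 counts in any library, where 3 counts, the most that a count of 0 allows, stand for 0.0876 to 0.0965 CPM in Y641-F libraries and 0.0833 to 0.0908 CPM in Control libraries. *Ifnb1*, which encodes interferon beta, had 0 counts in each Y641-F library and 0, 4 and 0 counts in Control replicates 1, 2 and 3. These limits cover counting error only.

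The signalling chain was lower at the kinases and at 1 type I receptor chain. Of 11 receptor, kinase and STAT genes tested, 5 (45.5%) were lower and 6 did not pass the test, beside 16.0% of all genes lower and 15.6% higher. *Tyk2*, the kinase bound to *Ifnar1*, had 542, 614 and 520 counts in Y641-F libraries, against 1380, 1290 and 985 counts in Control libraries. No library crossed between the groups, and the log2 fold change was -1.02 (SE 0.119, edgeR adjusted p = 5.93e-05). *Ifnlr1*, the receptor chain for interferon lambda, had 237, 274 and 191 counts in Y641-F libraries, against 448, 441 and 446 counts in Control libraries, with a log2 fold change of -0.83 (SE 0.153, edgeR adjusted p = 0.00145). *Ifnar1* had 1214, 1255 and 1170 counts in Y641-F libraries, against 1854, 1837 and 1790 counts in Control libraries, with a log2 fold change of -0.49 (SE 0.0873, edgeR adjusted p = 0.00109). Each of these receptor genes kept its groups apart. *Jak2* and *Jak1*, the kinases of the interferon gamma receptor, had log2 fold changes of -0.48 and -0.43 (edgeR adjusted p = 0.00158 and 0.00495).

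*Ifnar2*, the other type I receptor chain, had a log2 fold change of 0.11 (95% interval -0.10 to 0.31, edgeR adjusted p = 0.445), and *Ifngr1*, the ligand-binding chain for interferon gamma, one of -0.23 (95% interval -0.43 to -0.03, edgeR adjusted p = 0.0838).

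**Figure D5:**
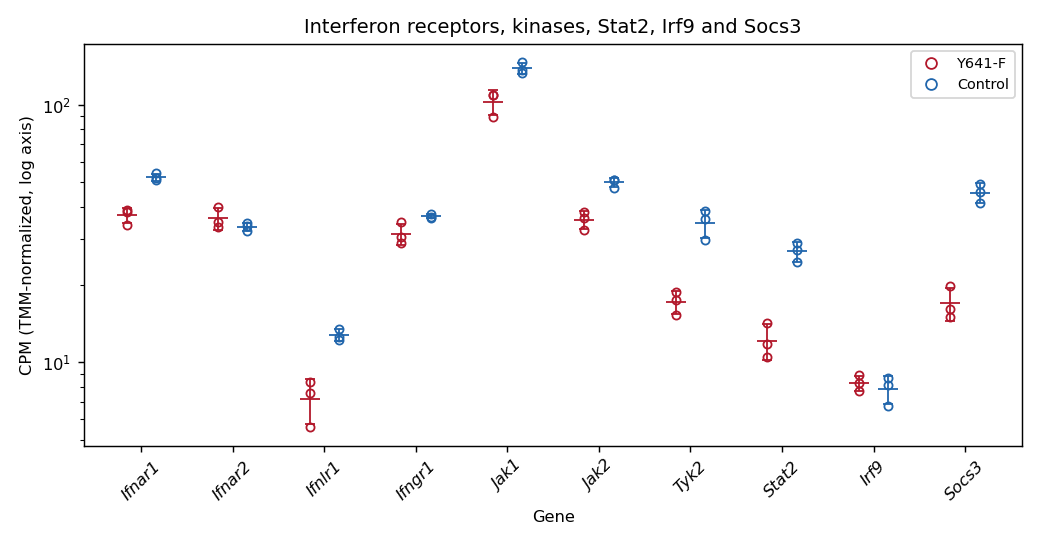
CPM (log axis) of interferon receptors, kinases, *Stat2*, *Irf9* and the feedback inhibitor *Socs3*, with a point for each library, Y641-F in red left of Control in blue, and the mean with its SD as bars (n = 3 each). *Tyk2*, *Stat2*, *Ifnlr1* and *Socs3* show the widest gaps between the groups, and the points of *Irf9* and *Ifnar2* overlap.

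Of 20 tested sensors, adaptors and factors that lead to interferon production, 5 were lower and 5 higher, beside 16.0% and 15.6% of all genes (31.6% in both directions), and the median log2 fold change was -0.06. *Irf8*, a factor best known in myeloid cells, had 99, 101 and 96 counts in Y641-F libraries, against 339, 374 and 304 counts in Control libraries. The libraries of each group lay close together, and the log2 fold change of -1.68 (SE 0.146, edgeR adjusted p = 7.23e-06) came with a deviation of 0.15 log2 units in Control replicate 2. *Ticam1*, which encodes the TLR3 adaptor TRIF, had a log2 fold change of -0.85 (SE 0.126, edgeR adjusted p = 3.19e-04). *Ikbke*, a kinase of *Irf3* and *Irf7*, had one of -0.51 (SE 0.153, edgeR adjusted p = 0.0236), and its call was lost without Y641-F replicate 1, Y641-F replicate 3 or Control replicate 1 (edgeR adjusted p = 0.109, 0.099 and 0.101). *Irf2* and *Traf6* were the other lower genes, each at -0.33. The higher genes were the adaptor *Myd88* at 0.47 (SE 0.105, edgeR adjusted p = 0.00484), the endosomal sensor *Tlr3* at 0.37, the DNA sensor *Cgas* at 0.35, and *Traf3* and *Ripk1* at 0.33 each. *Ddx58*, which encodes RIG-I, had a log2 fold change of -0.23 (edgeR adjusted p = 0.0772), and *Irf3*, the factor that starts interferon transcription, one of -0.03 (95% interval -0.25 to 0.18, edgeR adjusted p = 0.835).

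Of 15 inhibitors of the pathway tested, 5 (33.3%) were lower, beside 16.0% of all genes, and 1 (6.67%) was higher, beside 15.6%. Their median log2 fold change was -0.06, with 8 genes below 0 and 7 above. The higher gene was the NLR family gene *Nlrc5*, with a log2 fold change of 0.60. *Socs3*, which blocks JAK kinases below cytokine receptors, had 501, 646 and 513 counts in Y641-F libraries, against 1770, 1650 and 1364 counts in Control libraries. The groups were far apart, with a mean of 16.9 ± 2.48 CPM in Y641-F cells and 45.5 ± 4.02 CPM in Control cells (SD, n = 3 each) and a log2 fold change of -1.42 (SE 0.118, edgeR adjusted p = 4.93e-06). *Nlrx1*, a mitochondrial inhibitor of MAVS signalling, had a log2 fold change of -0.84 (SE 0.195, edgeR adjusted p = 0.006), *Pias4*, a SUMO ligase that restrains STATs, one of -0.82 (SE 0.0917, edgeR adjusted p = 4.16e-05), and *Ptpn6*, the phosphatase SHP-1, one of -0.70 (SE 0.107, edgeR adjusted p = 3.85e-04). *Pias1* was the other lower gene, at -0.58.

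In a longer list of other interferon-stimulated genes 83 were tested. Of these 21 (25.3%) were lower, beside 16.0% of all genes, and 7 (8.43%) were higher, beside 15.6%, with a median log2 fold change of -0.20. *Tap1*, the peptide transporter of MHC class I, had 242, 342 and 211 counts in Y641-F libraries, against 687, 713 and 630 counts in Control libraries. Its groups did not overlap, with a log2 fold change of -1.25 (SE 0.163, edgeR adjusted p = 1.29e-04). *Oas1c*, a relative of *Oas1a*, had 42, 83 and 80 counts in Y641-F libraries, against 244, 182 and 187 counts in Control libraries, with a log2 fold change of -1.49 (SE 0.236, edgeR adjusted p = 5.21e-04). *Eif2ak2*, which encodes PKR, the kinase that stops translation on double-stranded RNA, had a log2 fold change of -0.46 (SE 0.0907, edgeR adjusted p = 0.00211). All 3 were lower in every Y641-F library.

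The largest changes of that list each way were in genes of few counts. *Phf11b* had 1, 9 and 3 counts in Y641-F libraries, against 15, 20 and 19 counts in Control libraries, with a log2 fold change of -1.94 (SE 0.665, edgeR adjusted p = 0.0436). *Slfn2*, a Schlafen gene of lymphocyte quiescence, had 67, 41 and 68 counts in Y641-F libraries, against 16, 40 and 21 counts in Control libraries, with a log2 fold change of 1.29 (SE 0.379, edgeR adjusted p = 0.0211). The call of *Phf11b* held without Y641-F replicate 2 and was lost without any other single library (edgeR adjusted p = 0.0654 to 0.125). The call of *Slfn2* was lost without Y641-F replicate 1, Y641-F replicate 3, Control replicate 1 or Control replicate 3 (edgeR adjusted p = 0.0731 to 0.0841).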

How the data were processed

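RNA of 3 Y641-F and 3 Control libraries of 4T-1 cells, grouped by their titles, was sequenced by the authors. The deposited values are unnormalised read counts for each gene. For them the submitters' processing notes list STAR 2 on GRCm39, featureCounts 2.0.1, fastp 0.20.1, MultiQC 1.9, FastQC 0.11.9 and bcl2fastq 2.19.0.316. Neither the annotation nor whether strand was used is stated in the sources read. A gene was tested if 3 or more libraries reached 0.1 CPM. Counts were scaled by TMM and compared by edgeR's quasi-likelihood test (edgeR 4.0.16, R 4.3.3, two-sided) with Benjamini-Hochberg adjustment over 21043 genes. Levels are TMM-scaled CPM, and standard errors and 95% intervals are for the log2 fold change. The p-values measure the spread between these 3 libraries a group, and depth limits precision for genes of few counts.

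Members and lists were chosen with earlier results of these data known. All members were named. From each pathway list up to 4 called genes (adjusted p below 0.05) were named by size of change, together with *Ifnb1*, *Ifnar1*, *Ifnar2*, *Ifngr1*, *Ddx58*, *Eif2ak2*, *Irf3* and *Ezh2*. *Jak1*, *Tlr3*, *Cgas*, *Traf3*, *Ripk1*, *Irf2*, *Traf6*, *Pias1* and *Nlrc5* lie outside that rule and were picked once their values were known, as were genes that overlap or resemble a member. Exon lengths and overlaps are from GENCODE M39. Alternatives used DESeq2 1.42.0 and limma 3.58.1, other scalings and filters, a block on the replicate number, and the omission of each library in turn. A gene withheld from the text is not reported here. The script was tested on simulated counts.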

Additional observations from a re-analysis of the deposited data

How the results depend on the processing

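The 4 genes that were higher (*Gbp3*, *Ifitm2*, *Ifitm3* and *Ifi35*) passed the test under all 15 alternatives, and no called gene changed direction. The number of lower genes ran from 12 to 16 with 1 library left out and from 15 to 20 under the other alternatives, with 20 when library sizes alone were used. That scaling gave 2408 higher and 4348 lower genes in all, against 3277 and 3374 with TMM. It added *Herc6*, *Gbp7* and *Rtp4*. *Herc6* and *Rtp4* also passed with upper-quartile factors (edgeR adjusted p = 0.0348 and 0.0448) and with a filter of 1 CPM (edgeR adjusted p = 0.037 and 0.048), *Gbp7* without Y641-F replicate 3 and *Uba7* without Y641-F replicate 2. The count past the study's thresholds ran from 5 to 10. The counts over all genes stayed within 1.5 times under every alternative.

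Whether the replicate numbers pair the libraries cannot be told from these counts. Same-numbered libraries had correlations of their deviations of -0.0705, -0.00402 and 0.102, and those with different numbers had -0.0988 to 0.103. With the replicate number as a block 15 members were lower and 4 higher (3244 and 3149 of all genes), and *Usp18* (-0.94, edgeR adjusted p = 0.0667) and *Ifi44* (-1.19, edgeR adjusted p = 0.0713) lost their call. limma-voom lost *Ifi44* (adjusted p = 0.112).

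Signs changed only for genes that did not pass the test. With library sizes alone *Irf9* was at -0.020, *Isg15* at -0.086 and *Ezh2* at -0.043, and with upper-quartile factors *Isg15* was at -0.019. With 1 library left out the log2 fold change ran from -0.030 to 0.15 for *Irf9*, from -0.090 to 0.12 for *Isg15*, from -0.092 to 0.040 for *Trim25*, from -1.78 to 0.33 for *Oas2*, from -0.037 to 0.014 for *Ifi27*, from -0.089 to 0.024 for *Irf3* and from -0.022 to 0.13 for *Ezh2*. The cause was not tested. Depth limits *Oas2*, *Ifitm1*, *Ifi44*, *Usp18* and *Ifit3b* most, with at most 63 counts in any library.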

Other observations

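Within the longer list of 83 other interferon-stimulated genes, 21 (25.3%) were lower, beside 16.0% of all genes, and 7 (8.43%) were higher, beside 15.6%, and the genes named here were picked from them after their values were seen. Among GTPases of the interferon response, *Gbp6*, *Gbp9* and *Gbp10* were lower, with log2 fold changes of -0.92, -0.55 and -1.20 (edgeR adjusted p = 0.0401, 0.0161 and 0.0231), and *Ifi47* and *Gvin1* were higher, with 1.24 and 0.87 (edgeR adjusted p = 0.00118 and 0.001). *Ifi47*, an immunity-related GTPase, had 89, 106 and 121 counts in Y641-F libraries, against 47, 45 and 50 counts in Control libraries. Other GTPases of the list did not pass the test. These were *Gbp2b*, *Gbp4*, *Gbp5*, *Gbp8*, *Irgm1*, *Irgm2*, *Igtp*, *Iigp1*, *Tgtp1* and *Tgtp2*. Some members of the TRIM family of ubiquitin ligases, *Trim12c*, *Trim14* and *Trim21*, were lower, with -0.53, -0.79 and -0.91 (edgeR adjusted p = 0.00841, 2.04e-04 and 0.00184). *Trim12a*, *Trim30a*, *Trim30c*, *Trim30d* and *Trim34a* of the same list did not pass the test. Of these *Trim30d* went the other way, at 0.42 (edgeR adjusted p = 0.0946).

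*Tdrd7*, *Mov10* and *Psmb9* were among the other called genes that were lower. *Tdrd7*, a Tudor domain protein of RNA granules, had 1035, 1058 and 1215 counts in Y641-F libraries, against 2215, 2097 and 1971 counts in Control libraries, and a log2 fold change of -0.83 (SE 0.0833, edgeR adjusted p = 2.00e-05). *Mov10*, an RNA helicase, had 1204, 1214 and 1216 counts in Y641-F libraries, against 2416, 2372 and 1852 counts in Control libraries, and a log2 fold change of -0.77 (SE 0.0941, edgeR adjusted p = 8.51e-05). *Psmb9*, an immunoproteasome subunit, had 70, 87 and 86 counts in Y641-F libraries, against 173, 190 and 201 counts in Control libraries, and a log2 fold change of -1.12 (SE 0.179, edgeR adjusted p = 5.45e-04). *Psmb8*, another such subunit, did not pass the test (0.005, edgeR adjusted p = 0.977). *Plscr1*, a phospholipid scramblase, and *Ifi30*, a lysosomal thiol reductase, were higher, with 0.55 and 0.59 (edgeR adjusted p = 7.81e-04 and 2.82e-04). None of these 5 called genes had overlapping groups.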
